A study of Mus musculus with 9 samples.

Results

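The 8 genes described here code for adhesion molecules, myelin proteins and cytoplasmic proteins of glial cells: Cadm4, Cdh19, Lgi4, Mbp, Pmp22, Cnp, S100b and Fabp7. They were taken by name from the 43629 genes of a count table of mouse embryonic fibroblast (MEF) cultures, and they were chosen by their place in glial biology with earlier values of these cultures, the Dp1Tyb and WT levels, known, so their differences between genotypes are given as a description. Each culture was grown from an E14.5 embryo that had been decapitated and eviscerated before its cells were dispersed with trypsin and passaged. RNA was sequenced from 4 wild-type (WT) cultures and from 5 cultures of Dp1Tyb littermates, a mouse model of Down syndrome with an extra copy of the part of mouse chromosome 16 that is orthologous to human chromosome 21. Both genotypes carry the strain label C57BL/6J.129P2 and had no other treatment. The comparison asks which of the 8 genes moved with a glial share of the cultures and which were also expressed by the fibroblasts. None of the 8 lies on chromosome 16, so none belongs to the duplication.

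Schwann cells, the glia of peripheral nerves, arise from the neural crest through precursors that carry the transcription factor Sox10 and the neuregulin receptor Erbb3. Body walls and limbs of an embryo hold nerves, and a culture made from minced tissue can keep some of these cells among its fibroblasts. Adhesion molecules are made early in this lineage, whereas the proteins of compact myelin reach high levels only once axons are wrapped. Several genes known from glia are also read in other cells, and bulk RNA does not show which cell a read came from.

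The genome positions are those of GRCm38 with GENCODE M21. Cadm4 spans chr7:24482023-24504539 on the plus strand, Cdh19 chr1:110888326-110977584 on the minus strand and Lgi4 chr7:31059342-31070935 on the plus strand. Mbp spans chr18:82475146-82585637, Pmp22 chr11:63128982-63159547 and Cnp chr11:100574904-100591729, all on the plus strand. S100b spans chr10:76253853-76261159 and Fabp7 chr10:57784881-57788450, also on the plus strand. The human ortholog of S100b lies on chromosome 21, but the mouse gene lies outside the orthologous part of chromosome 16. Lgi4 shares 44.9% of its exon bases with Fxyd3 on the opposite strand, which had a mean count of 3.11 per culture. Cnp shares 4.23% of its exon bases with Dnajc7, also opposite, at a mean count of 2724. The library kit keeps strand, but the strand option of the counting is not given in the sources used here, so reads in these overlaps could not be assigned with certainty.

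The cultures had between 24804539 and 30009361 counts in genes, and 14567 genes passed the filter on low counts, all 8 among them. The sample descriptions start with 1 or 2, here called culture sets, and do not say what the number marks. Set 1 held WT replicate 1 and Dp1Tyb replicate 1, and set 2 held the other 3 WT and 4 Dp1Tyb cultures. Dp1Tyb replicate 2 and WT replicate 1 stood apart from the rest, with mean correlations to the other cultures of 0.959 and 0.967 over all genes tested, against 0.976 to 0.982 for the other 7. For several correlations that changed without Dp1Tyb replicate 2, the value without it stands beside the value over all 9 cultures. All 12 fibroblast markers passed the filter, at a summed level of 52293 to 66981 CPM (counts scaled to the same library size, with TMM factors) in WT and 46183 to 80969 CPM in Dp1Tyb cultures, which fits the labelled cell type.

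The sequences just upstream of 5 of the genes are shown to set Cadm4, which moved with the glial markers, beside 4 genes that moved with them less or not at all. They come from the RefSeq promoter table on GRCm38.p6, are written 5′ to 3′ on the plus strand, and are cut before the first annotated base of each gene. Capitals mark matches to ACAANG, a relaxed form of the core bound by Sox proteins, searched on both strands. The windows are chr7:24481773-24482022 for Cadm4, chr11:100574689-100574903 for Cnp, chr10:57784673-57784880 for Fabp7, chr10:76253586-76253835 for S100b and chr11:63128732-63128981 for Pmp22.
Cadm4: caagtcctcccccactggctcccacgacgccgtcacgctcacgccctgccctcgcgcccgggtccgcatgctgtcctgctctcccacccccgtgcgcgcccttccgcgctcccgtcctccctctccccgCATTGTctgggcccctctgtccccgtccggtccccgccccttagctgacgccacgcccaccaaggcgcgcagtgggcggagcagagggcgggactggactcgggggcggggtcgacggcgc
Cnp: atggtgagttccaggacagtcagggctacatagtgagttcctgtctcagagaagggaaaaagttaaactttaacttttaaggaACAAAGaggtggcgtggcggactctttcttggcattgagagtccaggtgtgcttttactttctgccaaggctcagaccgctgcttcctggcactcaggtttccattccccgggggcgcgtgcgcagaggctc
Fabp7: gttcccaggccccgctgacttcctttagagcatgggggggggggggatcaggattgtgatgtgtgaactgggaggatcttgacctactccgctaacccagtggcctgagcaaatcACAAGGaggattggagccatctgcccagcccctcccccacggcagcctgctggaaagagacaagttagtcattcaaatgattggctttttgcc
S100b: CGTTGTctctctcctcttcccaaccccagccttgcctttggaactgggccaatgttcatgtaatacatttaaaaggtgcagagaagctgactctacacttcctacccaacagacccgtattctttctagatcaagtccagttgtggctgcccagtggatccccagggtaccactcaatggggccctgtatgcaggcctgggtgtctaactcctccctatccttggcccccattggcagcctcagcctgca
Pmp22: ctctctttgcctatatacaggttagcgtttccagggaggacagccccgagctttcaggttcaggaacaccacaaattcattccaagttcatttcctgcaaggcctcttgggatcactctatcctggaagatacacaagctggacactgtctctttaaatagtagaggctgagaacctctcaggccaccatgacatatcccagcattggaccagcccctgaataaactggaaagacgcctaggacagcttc
Cadm4, Cnp, Fabp7 and S100b each had 1 match in the 250 bases before their RefSeq start, and none of the 4 RefSeq windows of Pmp22 had one. Of all 32851 windows in the table, 36.3% held the motif, so its presence did not set these genes apart. The windows differed more in base composition, counted over the same 250 bases. Of these, Cnp and Fabp7 are printed only up to the annotated start of the gene. Cadm4 had 30 CpG dinucleotides, more than 94.1% of windows, and 4 matches to GGGCGG, the GC box, which 32.7% of windows held on either strand. S100b had 2 CpG and Fabp7 4, against a median of 6, and neither held a GC box. Cnp had 13 CpG with 2 GC boxes, which lie past the end of its printed stretch. The 4 windows of Pmp22 ranged from 3 to 27 CpG, so 1 of its starts lies in CpG-poor and another in CpG-rich sequence. Only the most upstream of the 4, with 3 CpG, is printed. Counts per gene do not show which start the cultures used. Cdh19, Lgi4 and Mbp are named without a sequence.

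The adhesion genes were lower in Dp1Tyb than in WT cultures, and by similar amounts. Cadm4 codes for an immunoglobulin-type molecule with which Schwann cells hold on to axons. Its level was 24.95, 19.2, 26.9 and 12.8 CPM in WT replicates 1 to 4, and 8.69, 6.43, 12.3, 7.17 and 5.20 CPM in Dp1Tyb replicates 1 to 5. Every Dp1Tyb culture was below every WT culture, although the highest Dp1Tyb culture and the lowest WT culture lay close together. The means were 20.97 ± 6.33 (SD, n = 4) and 7.95 ± 2.72 CPM (SD, n = 5), and the fitted difference was -1.40 on the log2 scale (SE 0.276), or 2.64-fold lower. Fewer glial cells and less of the transcript in each glial cell cannot be told apart in bulk RNA, here and for the genes that follow.

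Cdh19 codes for a cadherin that marks Schwann cell precursors. It was at 18.8, 11.2, 13.3 and 8.11 CPM in the WT cultures and at 5.48, 2.95, 8.09, 4.999 and 3.20 CPM in the Dp1Tyb cultures. The groups did not overlap, but WT replicate 4 and Dp1Tyb replicate 3 were almost level. The fitted difference was -1.38 on the log2 scale (SE 0.328).

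Lgi4 codes for a secreted protein that Schwann cells need to myelinate, acting through the receptor Adam22. Its level was 12.8, 8.63, 14.6 and 7.69 CPM in WT and 4.02, 3.32, 8.32, 3.83 and 3.39 CPM in Dp1Tyb cultures. Dp1Tyb replicate 3 lay above WT replicate 4, so the groups overlapped, while the other 4 Dp1Tyb cultures were below all WT cultures. The fitted difference was -1.26 on the log2 scale (SE 0.312). Over all 8 genes, Dp1Tyb cultures were entirely below WT for 2, Cadm4 and Cdh19, where the same held for 0.673% of all genes tested, and 1.36% did not overlap in either direction.

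No gene of the 8 was called between the genotypes by edgeR, the main test, at an adjusted p below 0.05 (24 of 14567 genes were called, 0.165%, and 0% in the lower direction). The edgeR adjusted p was 0.212 for Cadm4, 0.477 for Cdh19 and 0.547 for Lgi4. Without adjustment these 3 of the 8 were under 0.05, as were 3.13% of all genes tested, and 1.77% in the lower direction. DESeq2, the tool the study used, called the same 3 genes as lower, with adjusted p of 0.000528, 0.0112 and 0.0251, where it called 0.415% of all genes and 0.122% as lower. With a prior on its fold changes, as in the version of the study, it called the same 3 again, and 0.387% of all genes, 0.115% as lower. The 3 adhesion genes were more than 2-fold lower by the edgeR fit, as were 0.769% of all genes tested. Whether the adhesion genes count as changed therefore depended on the tool. DESeq2 gave differences of -1.39, -1.37 and -1.25 without the prior, and of -0.73, -0.62 and -0.59 with it, since the prior shrinks fold changes towards 0. Within culture set 2 the differences were -1.34, -1.17 and -1.13, and edgeR called none of them there. In set 1, with 1 culture of each genotype and so no test, the log2 levels differed by -1.51, -1.76 and -1.65. The median fitted difference over the 8 genes was -0.31, against 0.0027 over all genes tested.

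The 3 myelin genes differed little between the genotypes. Mbp codes for myelin basic protein, which holds the cytoplasmic faces of myelin together. It was at 8.08, 3.80, 3.81 and 5.76 CPM in WT and at 3.94, 4.38, 5.26, 4.12 and 4.16 CPM in Dp1Tyb cultures. WT replicates 1 and 4 lay above all Dp1Tyb cultures and WT replicates 2 and 3 below all of them. The fitted difference was -0.30 on the log2 scale (SE 0.234), and 0.0069 within set 2, which lacks WT replicate 1.

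Pmp22 codes for peripheral myelin protein 22, a membrane protein of compact myelin that is also known as Gas3, from growth-arrested fibroblasts. It was at 186, 148, 186 and 212 CPM in WT and at 147, 96.2, 232, 208 and 193 CPM in Dp1Tyb cultures. The highest and the lowest culture were both Dp1Tyb. The fitted difference was -0.062 on the log2 scale (SE 0.23).

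Cnp codes for an enzyme of non-compact myelin that other cells also make. It was at 16.5, 16.5, 18.0 and 16.2 CPM in WT and at 14.6, 14.45, 16.1, 14.46 and 17.3 CPM in Dp1Tyb cultures. It varied least of the 8, with a highest level 1.25-fold over the lowest, and only 17.4% of genes tested had a smaller spread over the cultures. Of the Dp1Tyb cultures, 4 were below all WT cultures and replicate 5 was above 3 of them. The fitted difference was -0.13 on the log2 scale (SE 0.0844).

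Both cytoplasmic proteins came from few counts. S100b, a calcium-binding protein used to stain Schwann cells and astrocytes, had 28 to 111 counts per culture. It was at 2.17, 2.23, 1.502 and 1.29 CPM in WT and at 1.97, 4.54, 1.21, 1.21 and 1.08 CPM in Dp1Tyb cultures. Dp1Tyb replicate 2 stood above all other cultures, the next being WT replicate 2, and set the sign of the difference, which was 0.15 on the log2 scale (SE 0.446) with it and -0.39 without it. Fabp7, a fatty acid carrier of radial glia and Schwann cell precursors, had 24 to 83 counts. It was at 1.45, 2.00, 3.08 and 1.82 CPM in WT and at 1.13, 1.35, 3.14, 1.75 and 0.924 CPM in Dp1Tyb cultures. The highest culture of each genotype was replicate 3, and the fitted difference was -0.33 on the log2 scale (SE 0.375). It was -0.69 without Dp1Tyb replicate 3 and -0.078 without WT replicate 3.

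**Figure D1:**
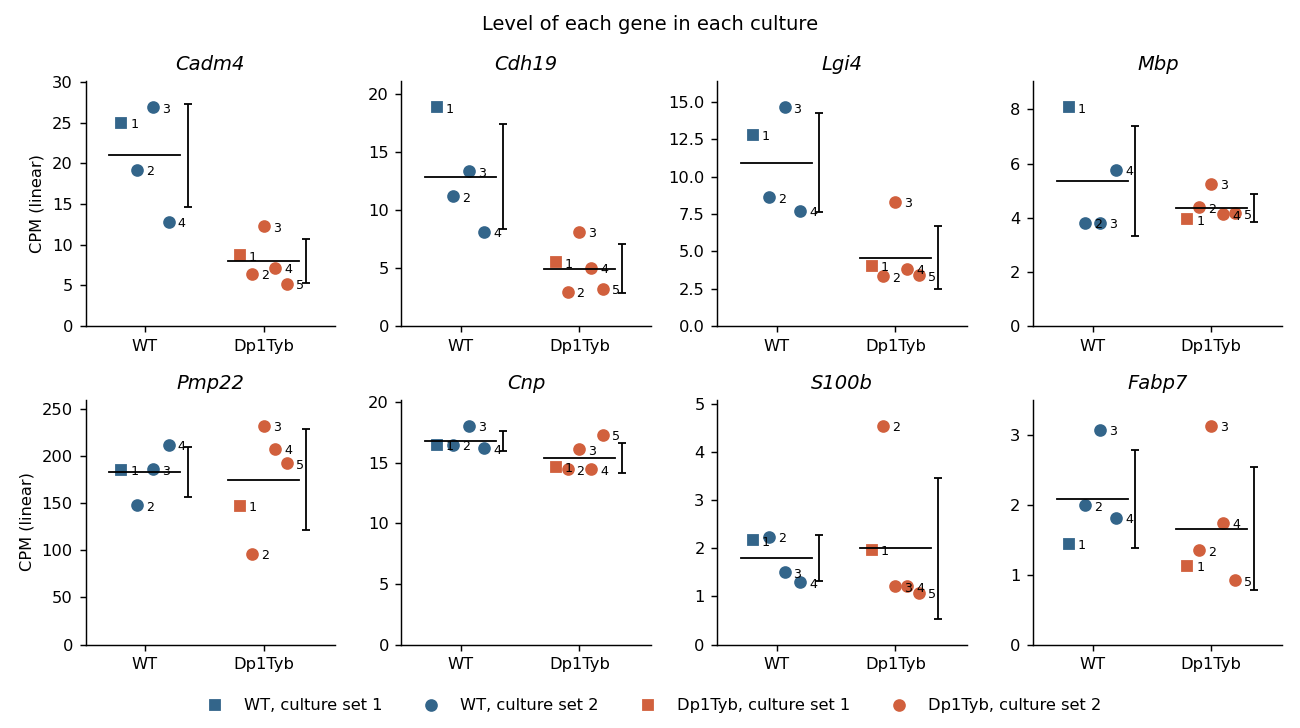
Level of each gene in each culture, in CPM on a linear axis from 0, for 4 WT and 5 Dp1Tyb cultures. Numbers are replicates, squares are culture set 1 and circles set 2, and black lines and bars are the mean and the SD; the genotypes separate for Cadm4 and Cdh19, nearly so for Lgi4, and overlap for the other 5 genes.

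**Figure D2:**
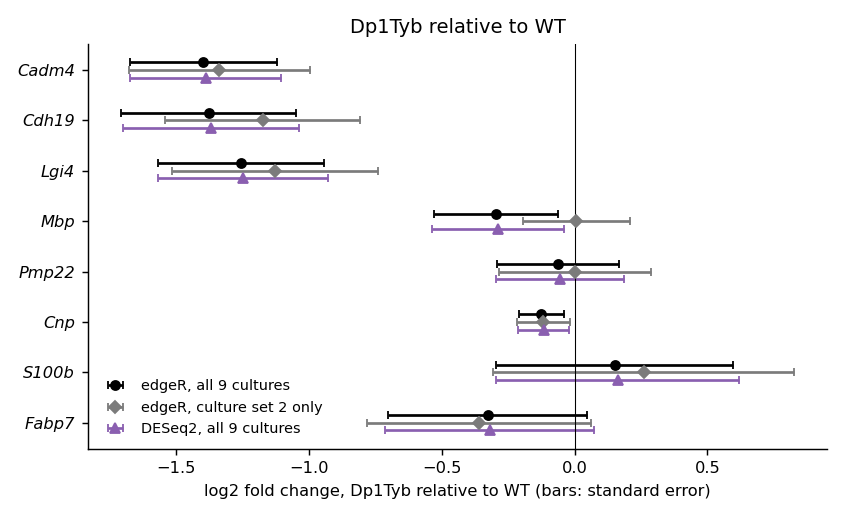
Fitted difference of each gene, Dp1Tyb relative to WT, on the log2 scale with its standard error, from edgeR over all 9 cultures, edgeR within culture set 2 and DESeq2 over all 9 cultures. Cadm4, Cdh19 and Lgi4 lie between -1.40 and -1.13 in each fit, and the other 5 genes lie within -0.36 and 0.26.

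To describe glial transcripts without the 8 genes, a glial index was taken from Sox10, Erbb3, the neural crest factor Foxd3 and Gfra3, a receptor for the growth factor artemin. It is the mean of their log2(CPM + 0.1) values, each centred over the 9 cultures. These 4 genes were chosen with earlier results of these cultures known, so the genotype difference of the index is a description. The index was 1.36, 0.50, 1.20 and 0.16 in the WT cultures and -0.39, -1.05, 0.29, -0.81 and -1.27 in the Dp1Tyb cultures. This is a 6.18-fold range, and the genotype means differed by -1.45, or by -1.33 within set 2. Dp1Tyb replicate 3 lay above WT replicate 4, so the index overlapped between the genotypes. This overlap came from Gfra3, which had only 4 to 50 counts per culture. Gfra3 was at 1.06 CPM in Dp1Tyb replicate 3 and at 0.417 CPM in WT replicate 4. Sox10, Erbb3 and Foxd3 were each lower in every Dp1Tyb culture than in every WT culture, as were 0.673% of all genes tested. Sox10, for example, ran from 7.46 to 16.8 CPM in WT and from 1.62 to 6.77 CPM in Dp1Tyb cultures, with a fitted difference of -1.71 (SE 0.385, edgeR adjusted p = 0.403). None of the 4 index genes was called by edgeR.

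The 3 adhesion genes followed this index closely. Over the 9 cultures, Pearson's r of the log2 levels with the index was 0.987 for Cadm4, 0.981 for Cdh19 and 0.979 for Lgi4, and Spearman's rho was 0.967 for each. The points share libraries and scaling, so the correlations are descriptions. Among 14555 other genes tested, with the 8 genes and the index genes left out, 1 had a higher r than Cadm4 and 4 a higher r than Lgi4, and 0.344% had an r above 0.9. The relation did not rest on the genotype difference alone: with each genotype's mean removed, r was 0.971, 0.944 and 0.938, and within set 2 it was 0.987, 0.974 and 0.994. Without the 2 cultures farthest from the median of the index, Dp1Tyb replicates 5 and 2, r was 0.978, 0.976 and 0.973.

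The slopes were somewhat under 1, the value for a change in proportion to the index. The slope of the log2 level on the index was 0.89 ± 0.0545 (SE) for Cadm4, 0.93 ± 0.0699 for Cdh19 and 0.85 ± 0.0669 for Lgi4. A straight line of CPM on the linear index, carried on to a glial level of 0, met 10.6% of the mean level for Cadm4, 6.74% for Cdh19 and 14.57% for Lgi4. For comparison, Sox10, Erbb3, Foxd3 and Gfra3, each against the index without that gene, had slopes of 1.20, 1.08, 1.01 and 0.61. Their lines met -9.32%, -8.59%, -10.8% and 27.6% of the mean level. The values of the adhesion genes lay within these ranges only through Gfra3, whose counts ran from 4 to 50 and whose slope had an SE of 0.195. Beside Sox10, Erbb3 and Foxd3 alone, with slope SEs of 0.12, 0.08 and 0.134, the adhesion genes had lower slopes. Their lines met a glial level of 0 at positive values, and those of Sox10, Erbb3 and Foxd3 at negative ones. The cause of this difference was not tested. The lowest culture had a linear index of 0.415, so the values at a glial level of 0 are extrapolations. When the index was subtracted, the spread of Cadm4 over the cultures dropped from 0.856 to 0.17 (SD, log2), that of Cdh19 from 0.897 to 0.188 and that of Lgi4 from 0.821 to 0.221. What remained differed between the genotypes by less than its SD within either of them. The log2 ratio of Cadm4 to the index averaged 3.53 over the 4 WT cultures (SD 0.195) and 3.59 over the 5 Dp1Tyb cultures (SD 0.166), and the differences for Cdh19 and Lgi4 were 0.06 and 0.17. Of 5 epithelial markers, 3 passed the filter, and their mean had an r of 0.887 with the index. Krt8 and Krt14, at 0.841 and 0.874, ran with it, but Krt18, the most abundant of the 3 per length, had an r of -0.559. The summed level of the list ran from 9.17 to 20.2 CPM in WT and from 8.40 to 12.4 CPM in Dp1Tyb cultures. None of the 5 was at 0 throughout, and their part in the result was not tested.

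**Figure D3:**
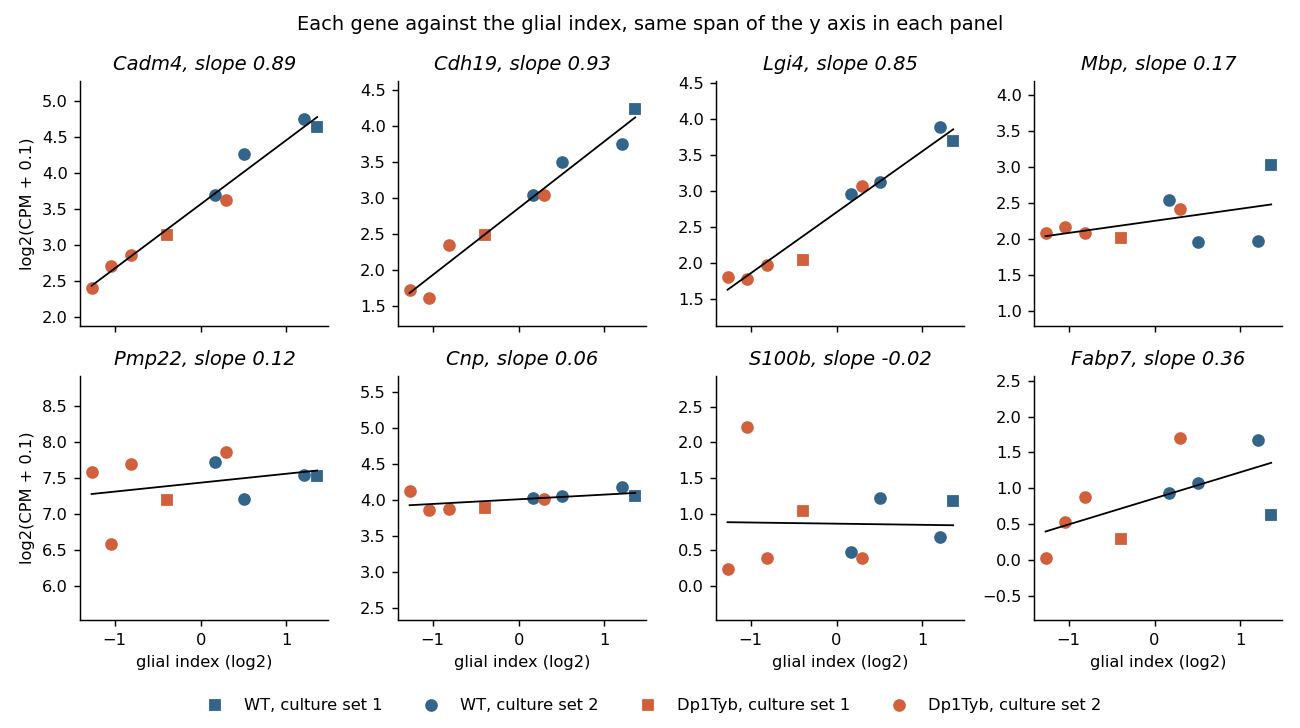
Log2(CPM + 0.1) of each gene against the glial index, 1 point per culture, with the fitted line and its slope; each panel spans the same number of log2 units. Cadm4, Cdh19 and Lgi4 run along lines with slopes of 0.89, 0.93 and 0.85 in both genotypes, and the slopes of the other 5 genes are 0.36 or less.

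The myelin and cytoplasmic genes followed the index less. Fabp7 came next, with an r of 0.609 and a slope of 0.36 ± 0.179, and 68.6% of its mean level at a glial level of 0. Its r was 0.866 within set 2 but 0.102 among the 4 WT cultures. Mbp had an r of 0.448, which rested on WT replicate 1: without that culture it was 0.012. Its slope was 0.17 ± 0.127 and 75.6% of its mean was met at a glial level of 0. Cnp had an r of 0.54 and a slope of 0.065 ± 0.0383, so its small changes went with the index across genotypes, but r was 0.133 with genotype means removed and 0.912 without Dp1Tyb replicate 5. Of its mean level, 92.8% was met at a glial level of 0. Pmp22 had an r of 0.303 and a slope of 0.12 ± 0.148, with 92.6% of its mean at a glial level of 0. Without Dp1Tyb replicate 2 its r was -0.072. S100b showed no relation, with an r of -0.024, but this too rested on a single culture: without Dp1Tyb replicate 2 it was 0.576.

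Pmp22 instead moved with the fibroblast index, the mean of 12 fibroblast genes taken in the same way, and also with macrophage markers. Its r with this index was 0.954 over the 9 cultures, 0.849 without Dp1Tyb replicate 2, 0.99 within set 2 and 0.78 without the 2 cultures farthest from the median, Dp1Tyb replicate 2 and WT replicate 2. The fibroblast index was -0.93 in Dp1Tyb replicate 2 and between -0.29 and 0.40 in the other 8 cultures. Its r with the glial index was 0.304, and its genotype means differed by -0.046. Its most abundant members were Col1a1 and Col1a2, the chains of type I collagen, Fn1, the matrix protein fibronectin, and Fbln2, a fibulin. These did not all run with the mean. Col1a1 and Col1a2 were lowest in Dp1Tyb replicate 2, as the index was. Fn1 and Fbln2 were lowest in WT replicate 1, and Fbln2 was highest in Dp1Tyb replicate 2. The fibroblast genes also split in their r with the glial index, so the 0.304 averages opposite trends. Lum and Dcn had an r of 0.765 and 0.633 with it, and Fn1, Fbln2 and Thy1 of -0.860, -0.611 and -0.391. The rest lay between 0.058 and 0.342. Macrophage markers moved with Pmp22 as well, with an r of 0.919 for the mean of all 6, and 0.907 without Dp1Tyb replicate 2. Without the 2 cultures farthest from the median of the fibroblast index this r was 0.92, where that of the fibroblast index was 0.78. Spearman's rho of Pmp22 was 0.883 with the macrophage mean and 0.817 with the fibroblast index. Which of the 2 Pmp22 followed more closely depended on the cultures and the measure. The summed level of the macrophage markers ran from 55.6 to 203 CPM in WT and from 14.2 to 288 CPM in Dp1Tyb cultures, mostly from Lyz2 and Cd68, and none of the 6 was at 0. Their part in the level of Pmp22 was not tested. The r of Cadm4, Cdh19 and Lgi4 with the fibroblast index was 0.211, 0.393 and 0.331, and changed sign without Dp1Tyb replicate 2, to -0.262, -0.152 and -0.092.

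S100b ran the other way. Its r with the fibroblast index was -0.879, and -0.605 without Dp1Tyb replicate 2, and its r with Pmp22 was -0.926, or -0.78 without that culture. Without the 2 cultures farthest from the median of the fibroblast index it was -0.359, so this relation rested in large part on them. S100b is also made by cartilage cells. The mean of 6 chondrocyte markers had an r with it of 0.567, which was 0.898 without Dp1Tyb replicate 2. Their summed level was 22.3 to 56.8 CPM in WT and 16.0 to 52.7 CPM in Dp1Tyb cultures, with Comp, Col2a1, Sox6 and Sox5 as the most abundant per length and Matn1, the seventh, within the detection floor of 3 counts. The markers disagreed in Dp1Tyb replicate 2, where S100b was highest. Col2a1 was at its highest level there, 34.9 CPM, and Acan and Col9a1 at their lowest, each at 0.287 CPM. The part of cartilage cells in the level of S100b was not tested. The other S100 genes moved with S100b, with an r of 0.877 for the mean of 8 of them, which was 0.688 without Dp1Tyb replicate 2 and 0.534 without the 2 cultures farthest from the median of the fibroblast index.

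**Figure D4:**
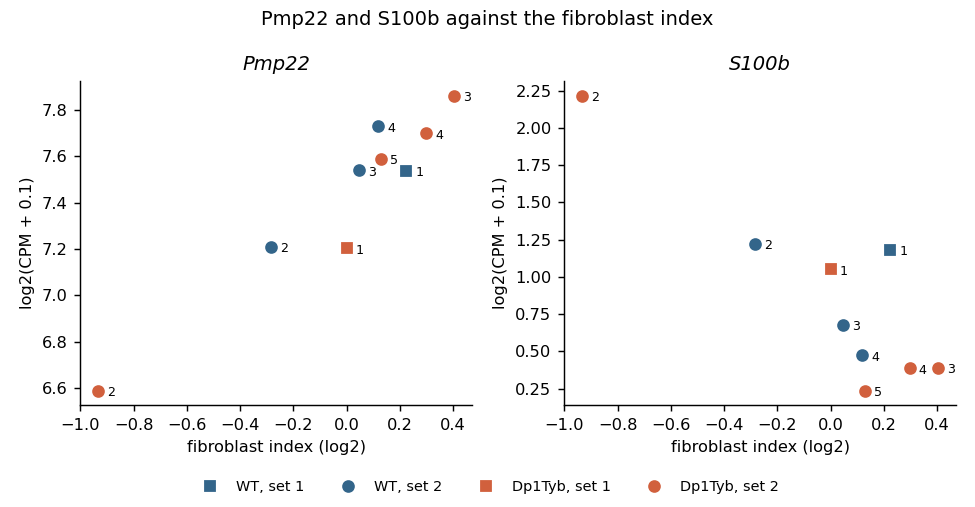
Log2(CPM + 0.1) of Pmp22 and S100b against the fibroblast index, 1 point per culture, numbered by replicate. Pmp22 is higher where the index is higher (r = 0.954) and S100b lower (r = -0.879), and Dp1Tyb replicate 2 lies far from the other 8 cultures in both panels.

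Levels can be compared between genes only per length, here as RPKM, the CPM divided by the exon length in kilobases. Pmp22 had 75.9 RPKM on average over the 9 cultures, above 96.4% of genes tested, and was the highest of the 8 in every culture. Cadm4 followed with 6.35 RPKM and Cnp with 4.40 RPKM, but Cadm4 was above Cnp in 5 of the 9 cultures only, 4 of them WT. Cdh19 at 1.98, Lgi4 at 1.61, Fabp7 at 1.48 and S100b at 1.29 RPKM changed places between cultures, and neighbours in this order did not differ beyond their spread. Mbp was last at 0.568 RPKM and below S100b in all 9 cultures.

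Close relatives of the 8 genes were often far more abundant. Among 16 S100 genes, S100b made up 0.0415% to 0.105% of the summed RPKM, and S100a11 alone had 880 RPKM, with S100a6 at 758, S100a4 at 504 and S100a10 at 126 RPKM. Cdh19 made up 0.37% to 2.19% of 13 cadherins, led by the mesenchymal cadherin Cdh11 at 117 RPKM, then Cdh3, Cdh2 and Cdh13. Fabp7 made up 1.505% to 6.06% of its family, where Fabp3 had 24.8 and Fabp5 21.2 RPKM, and Pmp2, the fatty acid carrier of myelin, had no counts. Pmp22 was itself a large part of its family, at 9.12% to 21.4%, behind Emp1 at 200 and Emp3 at 119 RPKM. None of the tested relatives, 9 cadherins, 8 S100 genes, 3 Fabp genes and 4 of the Pmp22 family, was called between the genotypes by edgeR (0.165% of all genes were), and 1, Cdh4, had an unadjusted p under 0.05.

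**Figure D5:**
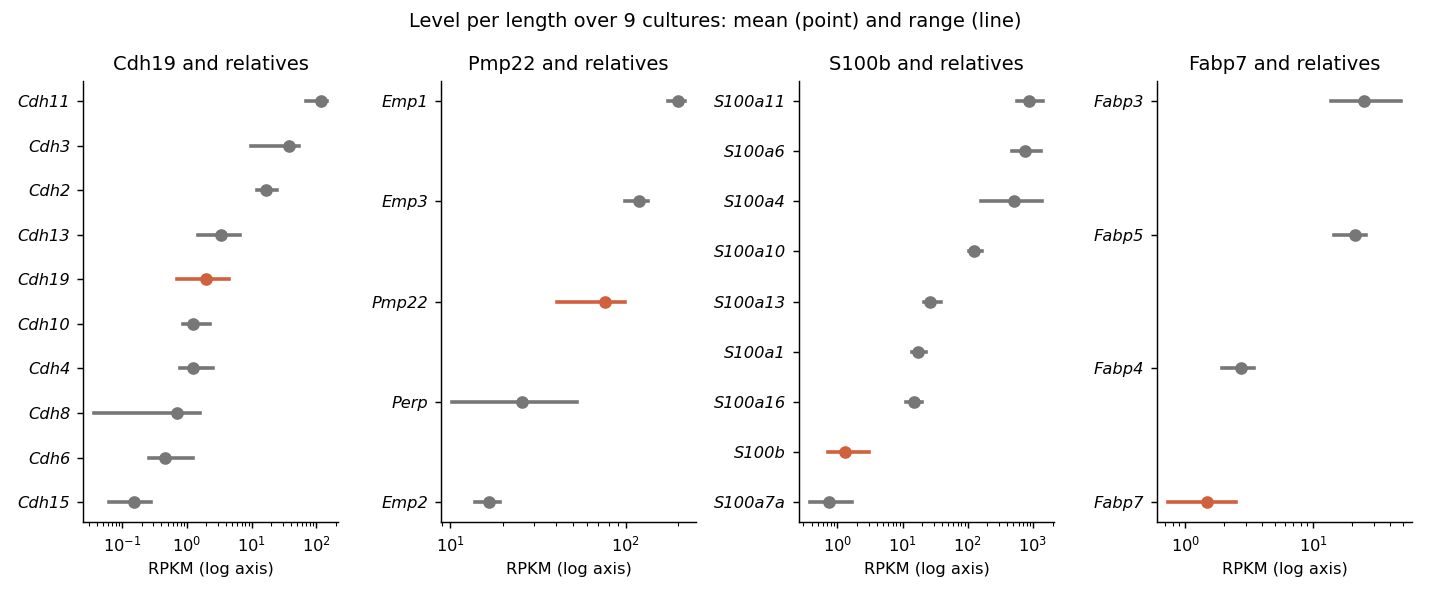
Level per length (RPKM, log axis) of Cdh19, Pmp22, S100b and Fabp7, in orange, and of the relatives of each that passed the filter on low counts, in grey; points are means over 9 cultures and lines run from the lowest to the highest culture. S100b lies below 7 of the 8 relatives shown and Fabp7 below all 3, while Pmp22 at 75.9 RPKM lies above Perp and Emp2.

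Most other genes of the Schwann lineage lay lower in the Dp1Tyb cultures, though edgeR called none. Their DESeq2 results are not given here. Of 26 further genes of this lineage, 18 passed the filter and 16 of these were lower in Dp1Tyb cultures, with a median difference of -0.55 on the log2 scale, against 0.0027 for all genes tested. By edgeR, 0 of the 18 were called (0.165% of all genes were). Of the 18, 6 had an unadjusted p under 0.05, all lower, against 1.77% of all genes tested in the lower direction. The list was chosen with earlier results of these cultures known, so these counts are a description. The mean of the 18 had an r of 0.964 with the glial index. The most abundant per length were Moxd1 with a difference of -0.077, the nerve growth factor receptor gene Ngfr with -1.52, the endothelin receptor gene Ednrb with -0.64 and Egr2, the regulator of myelin genes, with -0.54. The myelin genes Mag, Gjb1 and Fa2h were within 3 counts in every culture, Gjb1 at 0 in all. Of 9 markers of central glia, 6 were tested, Nkx2-2 and Mog were within 3 counts and 0 were called. The mean of the 6 had an r of 0.742 with the glial index. Sox9 and Aldh1l1, the most abundant per length, did not run with the glial index, at an r of -0.257 and 0.089. The other tested markers had an r of 0.472 to 0.633. The summed level of the 9 was 55.6 to 62.3 CPM in WT and 42.7 to 62.2 CPM in Dp1Tyb cultures. The part of these markers in the result was not tested. Lists of other cells the tissue could hold had an r with the glial index of -0.589 for 8 neuronal genes (3 tested), 0.446 for 7 melanocyte genes (2 tested), 0.344 for 6 adipocyte genes (2 tested), -0.718 for 6 skeletal muscle genes (2 tested), 0.215 for the 6 macrophage genes and -0.508 for 5 endothelial genes (3 tested). The 7 chondrocyte genes (6 tested) had an r of 0.518. Among endothelial genes, Emcn had an r of -0.877 and was higher in Dp1Tyb cultures by 1.77 on the log2 scale (SE 0.578). Kdr and Tek had an r of 0.063 and 0.326. None of the genes of these lists was called by edgeR. Both tested muscle genes were nonetheless higher in Dp1Tyb cultures at an unadjusted p under 0.05: Des, the muscle filament protein desmin, by 1.35 on the log2 scale (SE 0.335, edgeR adjusted p = 0.547) and Myh3, an embryonic myosin, by 3.30 (SE 0.678, edgeR adjusted p = 0.252) from 1 to 30 counts per culture. The summed level of the 6 muscle genes was 6.86 to 16.4 CPM in WT and 13.3 to 39.2 CPM in Dp1Tyb cultures, and its part in the results was not tested.

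Of 12 partners of the adhesion genes, 10 passed the filter, 6 were lower in Dp1Tyb cultures and 0 were called by edgeR (0.165% of all genes were). An unadjusted p under 0.05 was met by 2, Cadm1 and Lgi3, both lower, against 1.77% of all genes tested. The mean of the 10 had an r of 0.679 with the glial index. This r was 0.709 for Adam11, 0.683 for Lgi3, 0.680 for Cadm3 and 0.672 for Cadm2. For Epb41l3, Mpp6, Adam22, Adam23 and Lgi2 it lay between -0.375 and 0.141. Cadm1, a relative of Cadm4 that codes for an adhesion molecule of the same family, was at 2.24 RPKM and lower by -0.71 on the log2 scale (SE 0.269, edgeR adjusted p = 1.00). Its r with the glial index was 0.965. Adam22, the receptor of Lgi4, was at 1.06 RPKM with a difference of 0.25, and Adam23, a relative that also binds Lgi proteins, was at 3.05 RPKM with 0.088. The r of Lgi4 was 0.00067 with Adam22 and 0.167 with Adam23, but -0.556 and -0.155 without Dp1Tyb replicate 2. The scaffold gene Epb41l3 was the most abundant at 16.3 RPKM and differed by -0.027, and Mpp6 differed by 0.077.

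The genes whose levels ran most like those of the adhesion genes included Ngfr, Sox10, Sox2 and Foxd3 of the Schwann lineage and glial index lists, beside genes on neither. For Cadm4 they were Ngfr with an r of 0.993, Sox10 with 0.989 and the adhesion receptor gene Adgrg1 with 0.988. For Cdh19 they were Sox2, a factor of neural crest and immature Schwann cells, with 0.988, then Ngfr and Gfra2, a receptor for neurturin. For Lgi4 they were Foxd3 with 0.981, then Ttyh1 and the plexin gene Plxnb3. Over 9 cultures and 14567 genes a high r to some gene is easily met, and the nearest genes of the other 5 included no member of the Schwann lineage lists. They were Wnt5b, Esco1 and Spin4 for Mbp, at an r of 0.94 to 0.946, and Fam76a, Pink1 and Dmrt2 for Pmp22, at 0.975 to 0.976. For Cnp they were 1110038F14Rik, Gm45351 and Pelp1, and for S100b Pxn, the focal adhesion protein paxillin, with the integrin gene Itga3 and the kinase gene Abl1. Those of Fabp7, Mcoln1, Gm15429 and Alg1, reached an r of 0.882 to 0.905.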

How the data were processed

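RNA from 9 MEF cultures was sequenced as paired reads from stranded mRNA libraries. Per the labels and the methods, the authors trimmed reads with Trim Galore, mapped them to GRCm38 with TopHat2 2.0.12, discarded multialigning reads and counted reads per gene with HTSeq, and the deposited values used here are these raw counts. Their normalised values and their DESeq2 1.6.3 comparison (fold changes and p-values) were not used. Of 43629 Ensembl identifiers, 42548 matched GENCODE M21. Main test: edgeR 4.0.16 quasi-likelihood, TMM scaling, filterByExpr, no covariate, two-sided, Benjamini-Hochberg over all 14567 genes tested, threshold 0.05, checked on simulated data. DESeq2 1.42.0 was an alternative. CPM use TMM library sizes, and RPKM the merged exon length. Totals of 24804539 to 30009361 counts leave a large counting error for S100b, Fabp7 and the index gene Gfra3. The glial index was taken over 4 genes, and some further listed items are not reported here. Log2 levels carry a pseudocount of 0.1 CPM. The 8 genes, the marker lists and the index genes were chosen with earlier results of these data known. Named genes were the 8, the index genes, the 3 most similar genes of each, and up to 4 of each list by mean RPKM. Adam22, Lgi4's receptor, and Sox2, Cdh4, Pmp2, Mag, Gjb1 and Fa2h as list members were named after their values were seen. So were the list members Acan, Col9a1, Lum, Dcn, Thy1, Lgi2, Lgi3, Adam11, Cadm2 and Cadm3. The cultures came from separate embryos.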

Additional observations from a re-analysis of the deposited data

Results flagged for a closer look

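In each group of 4 or 5 cultures the gap between the most extreme culture and its neighbour was set against the whole range of the group with Dixon's criterion. Of 28 groups examined, 2 had such a culture, and chance alone marks about 1 in 20. Lgi4 was at 8.32 CPM in Dp1Tyb replicate 3, apart from 3.32 to 4.02 CPM in the other 4 Dp1Tyb cultures. The glial index of this culture, 0.29, was also the highest of its genotype. Cnp was at 18.0 CPM in WT replicate 3, apart from 16.2 to 16.5 CPM in the other 3 WT cultures, a gap that is small in absolute terms.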

How the results depend on the processing

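Of 144 recomputed fold changes of the 8 genes, 129 kept direction and side of the threshold, 9 passed the threshold (Cadm4, Cdh19 and Lgi4 in 3 DESeq2 fits) and 6 changed sign. With culture set 2 only, chosen after seeing the data, Mbp was at 0.0069 and Pmp22 at 0.0021, and 1 gene was called. With 1 culture left out, Pmp22 ranged from -0.19 to 0.092 and changed sign without WT replicate 4 (0.026), Dp1Tyb replicate 1 (0.00053) and Dp1Tyb replicate 2 (0.092), and S100b ranged from -0.39 to 0.31, changing sign without Dp1Tyb replicate 2. The count of genes called, 24, was 68 with DESeq2 and 67 with its beta prior. It ranged from 2 to 26 with 1 culture left out: 2 without WT replicate 2 or 3, 3 without Dp1Tyb replicate 5, 8 without WT replicate 4, 9 without Dp1Tyb replicate 4, 14 without Dp1Tyb replicate 1 or 3 and 15 without WT replicate 1. The number of the 8 genes called, 0, was 3 in each DESeq2 fit and 0 to 0 with 1 culture left out. There the adjusted p of Cadm4 ran from 0.0904 to 0.822, of Cdh19 from 0.179 to 1.00 and of Lgi4 from 0.0523 to 1.00. The median r with the glial index, 0.574, was 0.712 with culture set 2 only and 0.557 to 0.692 with 1 culture left out.

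Same-numbered cultures correlated in their deviations at 0.259, 0.741, 0.0315 and 0.378, and 1 of 4 correlated best with its own number, so the numbers were not taken as pairs. With a replicate block edgeR called 0 genes (802 at an unadjusted p under 0.05), and DESeq2 with the block, added after seeing the data, 85. Dp1Tyb replicate 5 has no partner there. The cause of these shifts was not tested. Depth limits S100b, Fabp7 and the index gene Gfra3.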
